A study of Mus musculus with 94 samples.

Results

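Fatty acid uptake genes are described here as the rows of *Lpl*, *Gpihbp1*, *Cd36*, *Fabp4*, *Fabp5* and *Pparg* in the expression table of freshly sorted perivascular adipose tissue-derived stem cells (PV-ADSCs). The genes were chosen by name, and all 6 were found among the 16069 genes of the table. The cells came from the peri-aorta adipose tissue of c57/bl mice (the strain as labelled) aged 8 weeks, by collagenase digestion and a sort for CD144-/CD45-/CD29+/Sca1+ cells, and a SMARTseq v4 library was made from each. There was 1 condition, with neither a treatment nor a comparison tissue. Of the 94 cells described, 85 were in the table and the other 9 were not analysed here. No animal was named for any cell, so together they stand for 1 sample, and groups of cells were not tested against each other. Cells were called stromal where the deposited value of *Dcn*, which encodes the matrix proteoglycan decorin, was at least 1000. This gave 58 stromal and 27 other cells.

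The 6 genes act at successive steps of fatty acid delivery. Lipoprotein lipase, the product of *Lpl*, frees fatty acids from circulating triglyceride; it is secreted by cells of the tissue and carried by GPIHBP1, a protein of capillary endothelium, to the vessel lumen. CD36 at the cell surface takes up the fatty acids, FABP4 and FABP5 bind them in the cytoplasm, and PPARγ is a nuclear receptor for lipid ligands that drives many genes of this kind. Most are known from adipocytes, and several also from the microvascular endothelium of fat, muscle and heart.

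The table held normalized read counts in which groups of genes had been multiplied by a factor of their own in each cell. Dividing by these factors gave whole numbers, called recovered reads here. They are reads after amplification and not molecules. Recovered reads on genes ranged from 1727402 to 3655526 per cell in the other cells (median 2714449) and from 1146945 to 4776510 in the stromal cells (median 2963854), whereas the genes above 0 had medians of 1416 and 2813. At least 3 of 14 endothelial markers reached 100 reads in 24 other cells and 1 stromal cell, and at least 3 of 9 stromal markers without *Dcn* in 56 stromal cells and 0 other cells. The summed CPM of the endothelial markers ran from 0 to 14846.4 in the other cells (median 9256.4) and from 0 to 14183.8 in the stromal cells (median 3), where CPM is recovered reads scaled to the same total in every cell. The part of these markers in the differences given here was not tested. Markers of pericytes and smooth muscle, macrophages, mesothelium, Schwann cells and lymphatic endothelium had a median summed CPM of 0 in both groups. *Cdh5*, which encodes the CD144 of the gate, was above 0 in 23 other and 7 stromal cells. Of 7 adipocyte markers, *Adipoq* alone was in the table, with reads in 1 stromal cell.

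Some cells stood apart. Cell 50 passed the *Dcn* threshold with a value of 6521.4, which was 69 reads times the largest factor of the table, 94.5. It had the fewest reads and 850 genes above 0, with 0 of 9 stromal and 1 of 14 endothelial markers at 100 reads. That marker was *Kdr*, a VEGF receptor, with 16197 reads, and the cell had the highest summed CPM of endothelial markers among the stromal cells, followed by cell 34 with 2420.0. The next value inside the threshold was 11184.9 (27349 reads) in cell 61, and the highest outside it was 269.0 (111 reads) in cell 20. Cell 34, also called stromal, held 6 endothelial and 8 stromal markers at 100 reads. Among the other cells, cells 13, 67 and 89 had only 377, 285 and 405 genes above 0. Differences and the counts that these 5 cells moved most are given with and without them. Without them *Lpl* was at 100 reads or more in 39 of 56 stromal and 10 of 24 other cells, and *Fabp5* in 6 and 11.

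*Fabp4*, *Cd36* and *Gpihbp1* were the genes of the uptake route with high levels in the other cells, and most of these cells held all of them. *Lpl* had the opposite pattern, with reads in most stromal cells and in fewer of the other cells. *Fabp5* and *Pparg* were found in a minority of the other cells. The difference used throughout is the mean of log2(value + 1) in the other cells minus that in the stromal cells, on the deposited values, and a gene was counted as different where it was at least 2 either way. On this rule 5 of the 6 genes were higher in the other cells, beside 1.09% of the 11478 genes compared, and *Lpl* was higher in the stromal cells, beside 16.4% of all genes. With a pseudocount of 100 in place of 1, *Fabp5* (1.61), *Pparg* (1.22) and *Lpl* (-1.07) no longer reached this limit. The median difference over all genes was -0.64. *Fabp4*, *Gpihbp1* and *Cd36* ranked 1, 2 and 3 of the 11478 genes toward the other cells. As these genes were chosen with earlier results of the data known, the ranks are a description only.

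**Figure D1:**
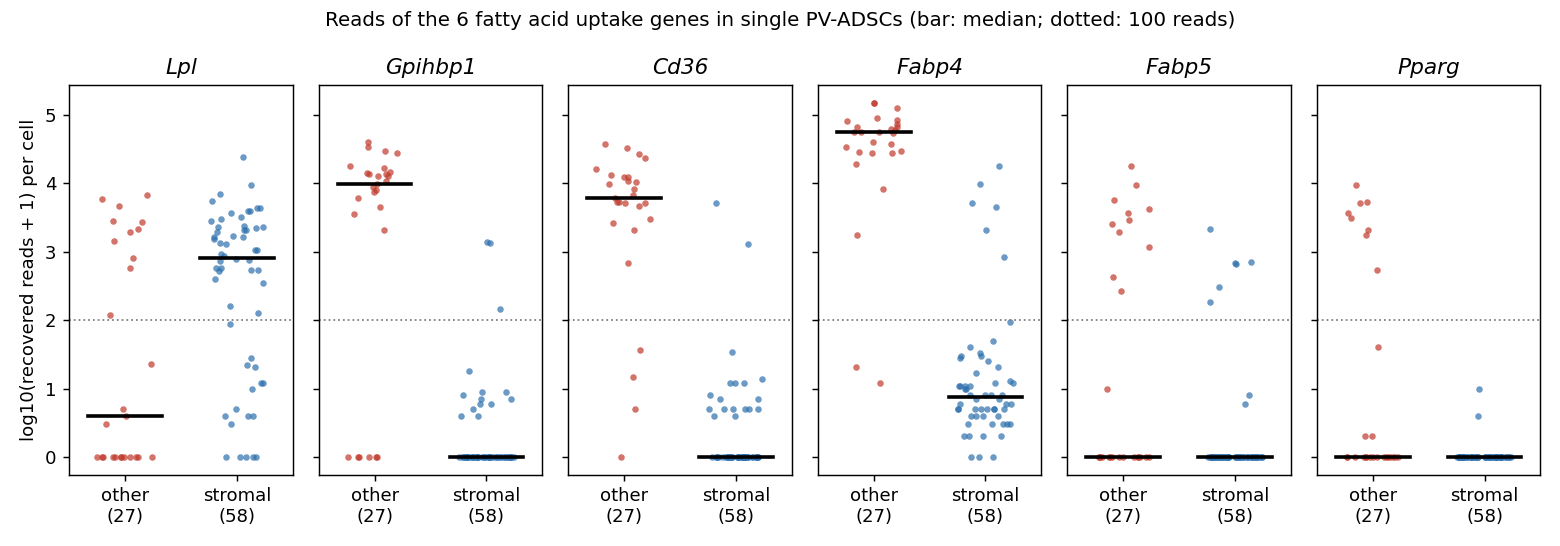
Recovered reads per cell, as log10(reads + 1), for each of the 6 genes in the 27 other and the 58 stromal cells; each point is a cell, the bar is the median and the dotted line marks 100 reads. *Gpihbp1* reads in the other cells lie either at 0 or above the highest stromal cell, whereas *Lpl* reads of the groups overlap, with 3 stromal cells above every other cell.

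*Lpl* had a lowest, median and highest count of 0, 824.5 and 24368 reads in the stromal cells and of 0, 3 and 6799 reads in the other cells. The groups overlapped over nearly the whole range, but 3 stromal cells lay above every other cell, and 19 of the 27 other cells lay below the stromal median. The gene was above 0 in 53 of 58 stromal cells (91.4%, exact 95% interval 81% to 97.1%) and in 15 of 27 other cells (55.6%, interval 35.3% to 74.5%). Such intervals cover counting error only. At 100 reads or more, these numbers were 41 stromal cells (70.7%, interval 57.3% to 81.9%) and 11 other cells (40.7%, interval 22.4% to 61.2%). Mean log2 values were 8.21 ± 4.08 (SD over cells, n = 58) and 4.89 ± 5.42 (n = 27), a difference of -3.32, which ranked 766 of 11478 toward the stromal cells. Without the 5 cells that stood apart the difference was -3.02.

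The *Lpl* signal of the other cells came from a part of them. The 11 cells with at least 100 reads held between 117 and 6799, and 1 more cell held 22, while 3 cells had 2 to 4 reads and 12 had none. The highest was cell 83, with 6799 reads of *Lpl*, 40474 of *Gpihbp1*, 33582 of *Cd36* and 85250 of *Fabp4*. Of the 11 cells, 10 had at least 3 endothelial markers at 100 reads, and the remaining 1 was cell 13. The 5 stromal cells with 0 reads of *Lpl* had 2178 to 3253 genes above 0, and 4 of them lay below the stromal median of 2813. Cell 49, with 3 reads of *Lpl*, had 1182 genes, whereas cell 79, also with 3 reads, had 4010 and cell 31, with 21 reads, had 4148. Over the 58 stromal cells the Spearman coefficient of *Lpl* with the genes above 0 was -0.02 on the deposited values.

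*Gpihbp1*, whose product anchors lipoprotein lipase to capillary endothelium, had a lowest, median and highest count of 0, 9995 and 40474 reads in the other cells and of 0, 0 and 1393 reads in the stromal cells. It behaved as present or absent: 21 of 27 other cells held it, all of them at 100 reads or more and above the highest stromal cell, and 6 held none. Among the stromal cells 14 of 58 had any reads (24.1%, interval 13.9% to 37.2%), 10 of these fewer than 10 reads and 3 at least 100 reads. The 3 were cell 50 (1393 reads), cell 34 (1326 reads) and cell 21 (146 reads).

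The mean log2 values of *Gpihbp1* were 10.62 ± 5.86 in the other and 1.09 ± 2.73 in the stromal cells, a difference of 9.53, or 11.28 without the 5 cells that stood apart. The deposited value of cell 50, 45040.3, was close to the highest value of the other cells, 46551.8, although it stood for 1393 reads times a factor of 32.3. Of the 6 other cells without *Gpihbp1*, 3 were those with few genes. The remaining 3, cells 69, 14 and 55, each had 6 or 7 endothelial markers at 100 reads. Cells 69 and 14 held 89599 and 57484 reads of *Fabp4* and 10850 and 5440 reads of *Cd36*, whereas cell 55 held 1778 reads of *Fabp4* and 0 of *Cd36*.

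*Cd36*, which encodes the fatty acid translocase, had a lowest, median and highest count of 0, 6173 and 38382 reads in the other cells and of 0, 0 and 5253 reads in the stromal cells. The highest stromal counts were those of cell 34 (5253) and cell 50 (1317), and without these cells no stromal cell had more than 33 reads. It was above 0 in 26 of 27 other cells (96.3%, interval 81% to 99.9%) and in 18 of 58 stromal cells (31%, interval 19.5% to 44.5%). At 100 reads or more, the numbers were 23 other cells (85.2%, interval 66.3% to 95.8%) and 2 stromal cells (3.45%, interval 0.42% to 11.9%). The mean log2 values were 10.42 ± 3.79 and 1.27 ± 2.59, a difference of 9.14, or 10.14 without the 5 cells.

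RefSeq promoters, 250 bases before to 50 bases after the start site, were matched for 2 of the 6 genes, *Cd36* and *Pparg*, which were both higher in the other cells. The promoter of *Cd36* is shown because it is the receptor of the set. It lies on the minus strand of GRCm38.p6 at chr5:17835847-17836146, and capitals mark a match on either strand to AGGTCA (the core bound by nuclear receptors), to TATAAA (the TATA box), to CCAAT (the box of that name), to GGGCGG (the GC box) or to TTCCGG (an ETS core).
Cd36 promoter: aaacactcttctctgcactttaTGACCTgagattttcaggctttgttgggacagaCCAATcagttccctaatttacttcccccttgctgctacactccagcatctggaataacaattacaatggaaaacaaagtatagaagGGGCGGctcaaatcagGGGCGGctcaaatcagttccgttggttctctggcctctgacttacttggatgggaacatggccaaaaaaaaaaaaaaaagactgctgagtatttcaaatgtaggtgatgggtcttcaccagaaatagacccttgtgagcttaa
The matches were an AGGTCA on the reverse strand, a CCAAT and a pair of GGGCGG that were 16 bases apart. An AGGTCA was held by 16.3% of all 32851 promoters, a CCAAT by 37.4% and a GGGCGG by 35.7%.

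*Fabp4*, which encodes the fatty acid binding protein of adipocytes and capillary endothelium, had a lowest, median and highest count of 11, 55884 and 152356 reads in the other cells and of 0, 6.5 and 18026 reads in the stromal cells. At the median it took 2.02% of all reads of an other cell, and up to 5.9%, compared with 0.000219% of a stromal cell. Of the 27 other cells, 23 lay above every stromal cell, and no stromal cell reached the median of the other cells. The mean log2 values were 13.55 ± 3.42 and 3.65 ± 3.39, and the difference of 9.90 became 11.13 without the 5 cells. Cells 13 and 67, with 20 and 11 reads, set the lower end of the other cells, and without them and cell 89 the lowest count was 1778.

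Counted as present or absent, *Fabp4* did not separate the groups. It was above 0 in 27 of 27 other cells (interval 87.2% to 100%) and in 55 of 58 stromal cells (94.8%, interval 85.6% to 98.9%). Most of the stromal cells held a trace, as 32 had 1 to 9 reads and 17 had 10 to 99. At 100 reads or more the numbers were 25 other cells (92.6%, interval 75.7% to 99.1%) and 6 stromal cells (10.3%, interval 3.89% to 21.2%), or 24 of 24 and 4 of 56 without the 5 cells that stood apart. For comparison *Dcn*, taken here as a gene of stromal cells, was above 0 in 27 of 27 other cells at 4 to 248 reads, with a median of 14. As *Dcn* defined the groups, the rule itself keeps it low in the other cells. The 9 stromal markers without *Dcn* were each above 0 in between 0 and 24 of the 27 other cells.

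The 6 stromal cells with 100 reads or more of *Fabp4* were not alike. Cell 34 (18026 reads) and cell 50 (9796 reads) also held more than 1000 reads of *Cd36* and *Gpihbp1*. Cells 92, 46, 21 and 81 held 5207, 4554, 2121 and 843 reads of *Fabp4*, with 0 to 4 reads of *Cd36* and at most 146 of *Gpihbp1*. These 4 cells had 6 to 8 stromal markers and 0 endothelial markers at 100 reads, and 3 of them held *Fabp5*.

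**Figure D2:**
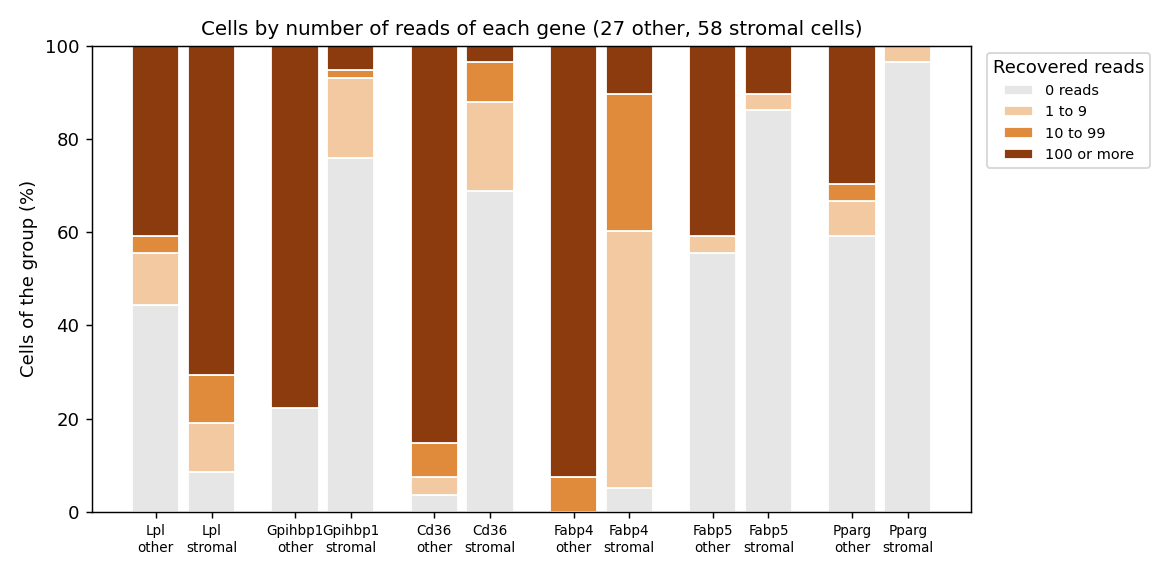
Share of cells (%) with 0, 1 to 9, 10 to 99 and 100 or more recovered reads of each gene, in 27 other and 58 stromal cells. *Fabp4* is above 0 in most cells of both groups but reaches 100 reads in 92.6% of other and 10.3% of stromal cells.

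*Fabp5*, which encodes the epidermal fatty acid binding protein, had a median of 0 reads in both groups, with a highest count of 18288 in the other and of 2153 in the stromal cells. It was above 0 in 12 of 27 other cells (44.4%, interval 25.5% to 64.7%) and in 8 of 58 stromal cells (13.8%, interval 6.15% to 25.4%). At 100 reads or more the numbers were 11 other cells (40.7%, interval 22.4% to 61.2%) and 6 stromal cells (10.3%, interval 3.89% to 21.2%). The mean log2 values were 4.71 ± 5.68 and 1.06 ± 2.91, a difference of 3.65 that ranked 50 of 11478, or 4.05 without the 5 cells.

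The 8 stromal cells with *Fabp5* all held *Fabp4* (2 to 5207 reads), and 7 of them held *Lpl*, at up to 24368 reads. Most stromal cells did so, as *Fabp4* was above 0 in 55 and *Lpl* in 53 of all 58. They had 0 to 33 reads of *Cd36* and 0 to 17 of *Gpihbp1*, genes that were low in nearly all stromal cells, and the highest, cell 29 with 2153 reads, held 4 reads of *Fabp4* and none of *Cd36* or *Gpihbp1*. All 12 other cells with *Fabp5* held *Fabp4* and *Cd36*, which were above 0 in 27 and 26 of all 27 other cells.

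The level of *Fabp5* is uncertain because of near-identical copies in the genome. Transcripts of other genes aligning to a member over at least 300 bases at 90% identity were found for *Fabp5* only. They were 5 processed pseudogenes, of which *Gm6166* (98.3% identical over 409 bases) and *Gm14328* (97.3% over 408 bases) were in the table. These were also the genes whose values followed *Fabp5* most closely over the 85 cells, with Spearman coefficients of 0.90 and 0.81. The first 150 coding bases of *Fabp5*, in 2 exons at chr3:10012640-10015041 (plus strand, GRCm38, GENCODE vM21), are shown with the same stretch of *Gm6166* at chr9:57483963-57484112 (plus strand). Capitals mark the only substitution, T9C, counted from 1 at the start codon with the base of *Fabp5* given first.
Fabp5: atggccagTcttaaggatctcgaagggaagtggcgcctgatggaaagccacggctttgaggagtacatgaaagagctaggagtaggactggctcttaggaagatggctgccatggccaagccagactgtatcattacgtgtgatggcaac
Gm6166: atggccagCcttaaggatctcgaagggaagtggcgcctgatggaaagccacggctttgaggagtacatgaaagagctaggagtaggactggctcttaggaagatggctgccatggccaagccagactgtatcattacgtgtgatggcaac
How reads were divided between such copies was not given in the sources used here. *Gm6166* had reads in 16 cells, all of them with *Fabp5*, and 0.325% to 0.918% of the *Fabp5* reads in the 10 cells with at least 1000 of these. In cell 89 the order was turned, with 232 reads of *Gm6166* and 9 of *Fabp5*. Summed over all cells the pseudogene had 1.16% of the *Fabp5* reads, or 0.74% without cell 89.

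**Figure D3:**
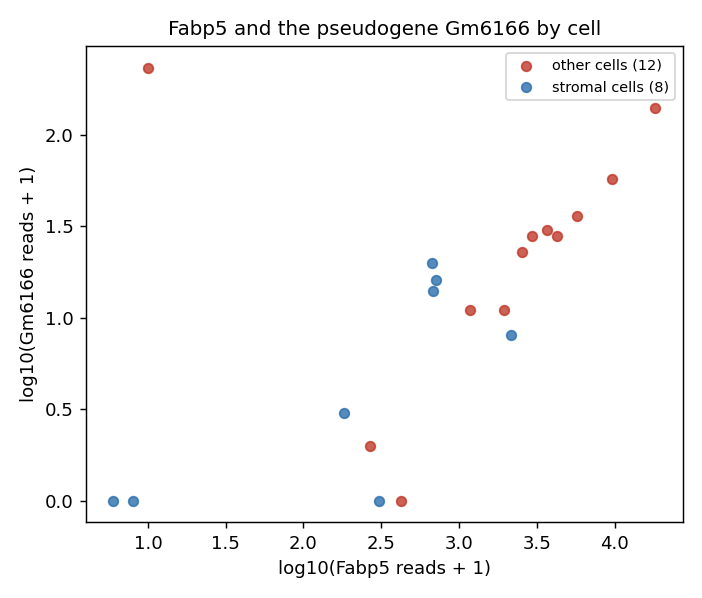
Reads of the processed pseudogene *Gm6166* against reads of *Fabp5*, both as log10(reads + 1), in the 12 other and 8 stromal cells with either. The counts mostly rise together, and cell 89 lies furthest apart, at 9 reads of *Fabp5* and 232 of *Gm6166*. Cells 17 and 79 hold 424 and 304 reads of *Fabp5* with 0 of *Gm6166*.

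*Pparg*, the regulator among the 6 genes, was the most restricted. Its lowest, median and highest counts were 0, 0 and 9481 reads in the other cells and 0, 0 and 9 reads in the stromal cells. It was above 0 in 11 of 27 other cells (40.7%, interval 22.4% to 61.2%), of which 8 held at least 100 reads. Among the stromal cells 2 of 58 had any reads (3.45%, interval 0.42% to 11.9%), and 0 of 58 reached 10 reads, which by the limit of 3 cells allows a share of up to 5.17% (exact interval up to 6.16%). The mean log2 values were 3.34 ± 4.91 and 0.10 ± 0.53. The difference of 3.24 ranked 64 of 11478, and was 3.65 without the 5 cells, none of which held *Pparg*.

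The 8 other cells with at least 100 reads of *Pparg* held 533 to 9481 of them. Every one of these cells had *Fabp4* (28202 to 152356 reads), *Cd36* (2646 to 38382 reads) and *Gpihbp1* (8081 to 34459 reads). Most other cells did so, as 20 of all 27 had *Fabp4*, *Cd36* and *Gpihbp1* each at 100 reads or more. Of these 20 cells, 10 had 0 reads of *Pparg*. The highest cell for *Pparg*, cell 20 with 9481 reads, was not high for *Cd36*, with 2646 reads.

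As the gene-level values do not tell which start site of *Pparg* was used, the promoters of its 3 RefSeq start sites are shown, on the plus strand of GRCm38.p6 at chr6:115360894-115361193, chr6:115362099-115362398 and chr6:115421816-115422115 in this order, with the capitals of the *Cd36* promoter.
Pparg promoter a: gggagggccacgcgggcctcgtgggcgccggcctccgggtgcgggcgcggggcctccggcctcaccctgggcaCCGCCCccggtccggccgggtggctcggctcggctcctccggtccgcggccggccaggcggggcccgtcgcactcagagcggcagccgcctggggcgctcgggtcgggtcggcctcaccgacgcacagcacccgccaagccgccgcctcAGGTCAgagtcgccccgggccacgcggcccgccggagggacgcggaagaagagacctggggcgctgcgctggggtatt
Pparg promoter b: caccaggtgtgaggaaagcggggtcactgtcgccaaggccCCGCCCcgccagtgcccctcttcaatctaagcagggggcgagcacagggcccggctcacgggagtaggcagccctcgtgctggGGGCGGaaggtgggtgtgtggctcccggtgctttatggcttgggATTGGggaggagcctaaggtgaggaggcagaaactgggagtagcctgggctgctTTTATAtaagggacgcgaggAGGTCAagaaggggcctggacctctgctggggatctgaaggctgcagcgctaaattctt
Pparg promoter c: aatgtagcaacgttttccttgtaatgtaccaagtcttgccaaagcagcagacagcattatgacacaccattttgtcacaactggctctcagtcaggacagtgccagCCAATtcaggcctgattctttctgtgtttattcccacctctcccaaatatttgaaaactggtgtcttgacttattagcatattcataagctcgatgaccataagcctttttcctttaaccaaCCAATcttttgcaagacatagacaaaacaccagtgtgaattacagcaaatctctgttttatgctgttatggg
AGGTCA was in windows a and b and not in window c, which held a pair of CCAAT boxes. The letters TATAAA, found in 13.6% of all promoters, were matched on the reverse strand in window b. Other forms of the TATA box were not sought. TTCCGG was in 0 of the 4 promoters shown, beside 14.9% of all promoters, and a direct repeat of AGGTCA with 1 base between the copies was likewise in 0 of 4, beside 0.0396%. A match is a run of letters and not a site that was shown to be bound.

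Taken by cell, *Fabp4*, *Cd36* and *Gpihbp1* were above 0 together in 21 of 27 other cells (77.8%, interval 57.7% to 91.4%) and at 100 reads or more in 20. In the stromal cells the numbers were 8 of 58 and 2, and the 2 were cells 34 and 50. Without cells 34 and 50, 6 of 56 stromal cells held all 3 genes and 0 held them at 100 reads. Without the cells with few genes, the count was 21 of 24 other cells. *Lpl* joined the 3 genes in 12 other cells (44.4%, interval 25.5% to 64.7%), and these 12 were also all the other cells with *Gpihbp1* and *Lpl* together. All 6 genes were found in 3 other cells, and 14 of the 27 held exactly 4.

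**Figure D4:**
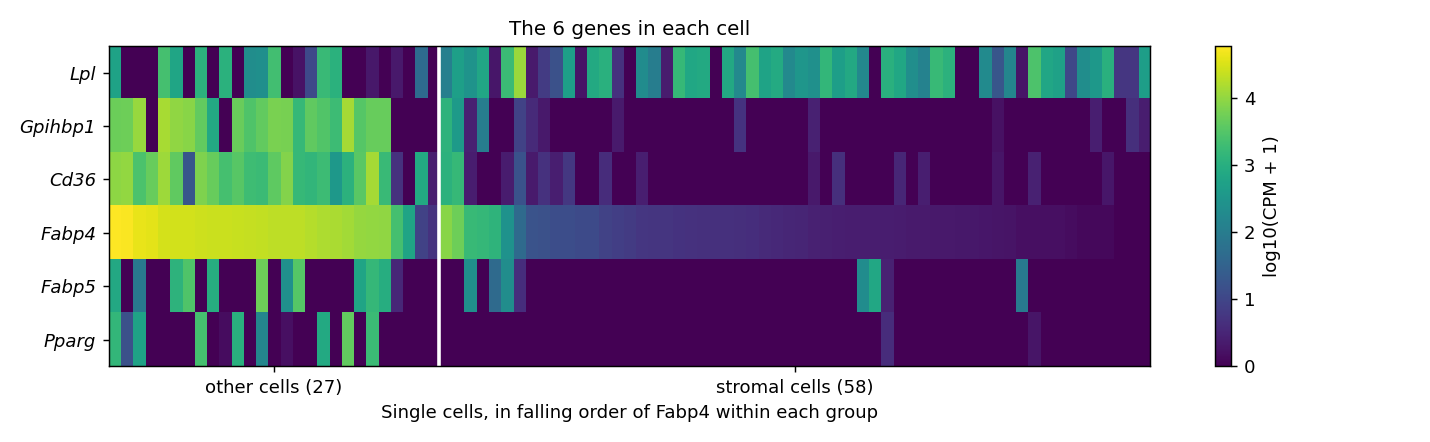
Map of the 6 genes (rows) in each of the 85 cells (columns), coloured by log10(CPM + 1), where CPM is the recovered reads scaled to the same total in every cell. Cells are in falling order of *Fabp4* within the 27 other cells (left block) and 58 stromal cells (right block). *Gpihbp1* and *Cd36* reach 100 reads in 21 and 23 cells of the left block. *Lpl* reaches 100 reads in 41 cells of the right block and in 11 of the left.

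The traces in the stromal cells were set beside the levels in the other cells. Summed over the 52 stromal cells with under 100 reads of *Fabp4* there were 564 reads of *Fabp4*, 120 of *Cd36*, 67 of *Gpihbp1* and 12 of *Pparg*. Relative to *Fabp4* this was 21.3% for *Cd36*, 11.9% for *Gpihbp1* and 2.13% for *Pparg*, compared with 17.6%, 20.8% and 2.09% in the other cells. These 52 cells were chosen for low *Fabp4*, which is the denominator here, so the percentages depend on that choice. Among them cell 54 alone held 33 of the *Cd36*, 17 of the *Gpihbp1* and 94 of the *Fabp4* reads. Of the 6 cells left out, cells 34 and 50 held 5253 and 1317 reads of *Cd36*. Cells 92, 46, 21 and 81 held 0 to 4 reads of *Cd36* beside 843 to 5207 of *Fabp4*. The value for *Pparg* rests on 12 reads in 2 cells, and without cell 86, which held 9 of them, it was 0.536%. For *Fabp5* and *Lpl* the sums were 3183 and 101650 reads, which exceed those of *Fabp4*, whereas they were 3.39% and 2% of it in the other cells. Of these stromal reads, cell 29 held 2153 of *Fabp5* and cell 54 held 24368 of *Lpl*. *Fabp5* was above 0 in 5 of the 52 cells and *Lpl* in 47. The origin of the traces was not tested.

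Within the 27 other cells the members were compared by Spearman coefficients, as a description over cells that share 1 sample. For *Fabp4* and *Cd36* the coefficient was 0.79 on the deposited values and 0.63 on CPM. *Fabp4* and *Cd36* are in the same group of genes and so share a factor in each cell, and the deposited *Fabp4* had a coefficient of 0.61 with the reads of the cell, compared with -0.03 for its CPM. On CPM the coefficients were 0.47 for *Fabp4* and *Gpihbp1*, 0.44 for *Cd36* and *Gpihbp1*, and 0.38 for *Pparg* with both *Cd36* and *Gpihbp1*. *Lpl* had coefficients between 0.04 and 0.17 with *Fabp4*, *Cd36*, *Gpihbp1* and *Pparg*, and of -0.21 with *Fabp5*. In the 24 cells without cells 13, 67 and 89 these CPM coefficients were lower, at 0.50 for *Fabp4* and *Cd36*, 0.30 for *Fabp4* and *Gpihbp1*, 0.27 for *Cd36* and *Gpihbp1*, and 0.28 and 0.30 for *Pparg* with *Cd36* and *Gpihbp1*.

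To compare levels between the genes, CPM was divided by the length of a transcript of each gene in kilobases. In the other cells the mean level per length was 23619.4 ± 16457.1 for *Fabp4*, 5324.7 ± 4835.4 for *Gpihbp1*, 1232.2 ± 1234.6 for *Cd36*, 666.4 ± 1287.2 for *Fabp5*, 259.6 ± 554.6 for *Pparg* and 102.7 ± 173.0 for *Lpl* (SD over 27 cells). *Fabp4* exceeded *Gpihbp1* by more than the SD of either, whereas each later gene in this order lay within the larger SD of the pair it forms with the gene before it. The order was the same in the 24 cells without cells 13, 67 and 89, with a mean of 26464.0 ± 15165.0 for *Fabp4*. In the stromal cells the order of *Fabp4* and *Lpl* rested on cells 34 and 50. With them the mean was 359.4 ± 1488.5 for *Fabp4* and 166.5 ± 370.3 for *Lpl*, without cell 50 it was 198.4 ± 852.2 and 168.9 ± 373.2, and without both cells 96.6 ± 370.5 and 169.8 ± 376.5. By the median *Lpl* was higher with all cells too, at 63.5 compared with 2.45 for *Fabp4*.

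The 3 genes closest to each member over the 85 cells were taken from 6121 genes above 0 in at least 10 cells. For *Fabp4* they were *Flt1* (0.66), *Cdh5* (0.61) and *Cav2* (0.58), and for *Cd36* *Cldn5* (0.64), *Cdh5* (0.63) and *Flt1* (0.63). *Flt1* encodes a VEGF receptor, *Cdh5* and *Cldn5* encode junction proteins of endothelium, and *Cav2* a protein of caveolae. The coefficients pool both groups, so they also hold the difference between the groups. *Flt1*, *Cdh5* and *Cldn5* were among the 14 endothelial markers, with differences of 6.53, 6.76 and 6.79. Likeness beyond the group difference was not tested. For *Gpihbp1* they were *Tspan7* (0.64), *Tspan13* (0.64) and *Tmsb4x* (0.62). For *Pparg* they were *Esam* (0.60), which encodes an endothelial adhesion molecule, *Car4* (0.55) and *Cxcl9* (0.54). After its pseudogenes, *Fabp5* was closest to *Gng11* (0.50). *Lpl* had no close companion, with *Psma6* (0.38), *Hdac1* (0.38) and *Dstn* (0.37) at the top. Over the 80 cells without the 5 that stood apart, the 3 closest genes of *Gpihbp1* and *Pparg* were kept, 2 of 3 were kept for *Fabp4*, *Fabp5* and *Lpl*, and 0 of 3 for *Cd36*, which was then closest to *Tmsb4x* (0.70), *Egfl7* (0.66) and *Tspan7* (0.65).

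Lists of fatty acid handling held 92 further genes, of which 65 were in the table and 53 were above 0 in at least 3 cells. Of these 53, 5 were higher in the other and 8 in the stromal cells by at least 2, which is 9.43% and 15.1% of them, beside 1.09% and 16.4% of all genes. The share toward the stromal cells was thus close to that of all genes. The median difference was -0.96, beside -0.64 for all genes. Toward the other cells were *Cav1* (6.74), which encodes caveolin-1, *Tcf15* (5.42), a transcription factor known from endothelial fatty acid uptake, *Apoe* (3.32), *Mgll* (2.79), a monoglyceride lipase, and *Scarb1* (2.07), a lipoprotein receptor. *Tcf15* was above 0 in 15 other and 3 stromal cells, and its partner *Meox2* in 5 and 3 cells with a difference of 0.68.

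Toward the stromal cells were *Lrp1* (-8.43), a receptor for lipoprotein remnants found in 50 stromal and 0 other cells, and *Pcsk6* (-4.68), a convertase that can cleave lipoprotein lipase. *Dbi* (-4.24), which encodes the acyl-CoA binding protein, *Cebpd* (-3.72), an adipogenic transcription factor, and the nuclear receptor corepressor *Ncor1* (-2.97) followed. The remaining 3 were *Plin3* (-2.91), *Sel1l* (-2.08), needed for lipase maturation, and *Acsl5* (-2.08). *Angptl4*, an inhibitor of lipoprotein lipase, did not reach the limit, with a difference of -1.37 and reads in 8 other and 24 stromal cells. Of the genes known as partners of PPARγ, *Rxra* was found in 2 other and 7 stromal cells.

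**Figure D5:**
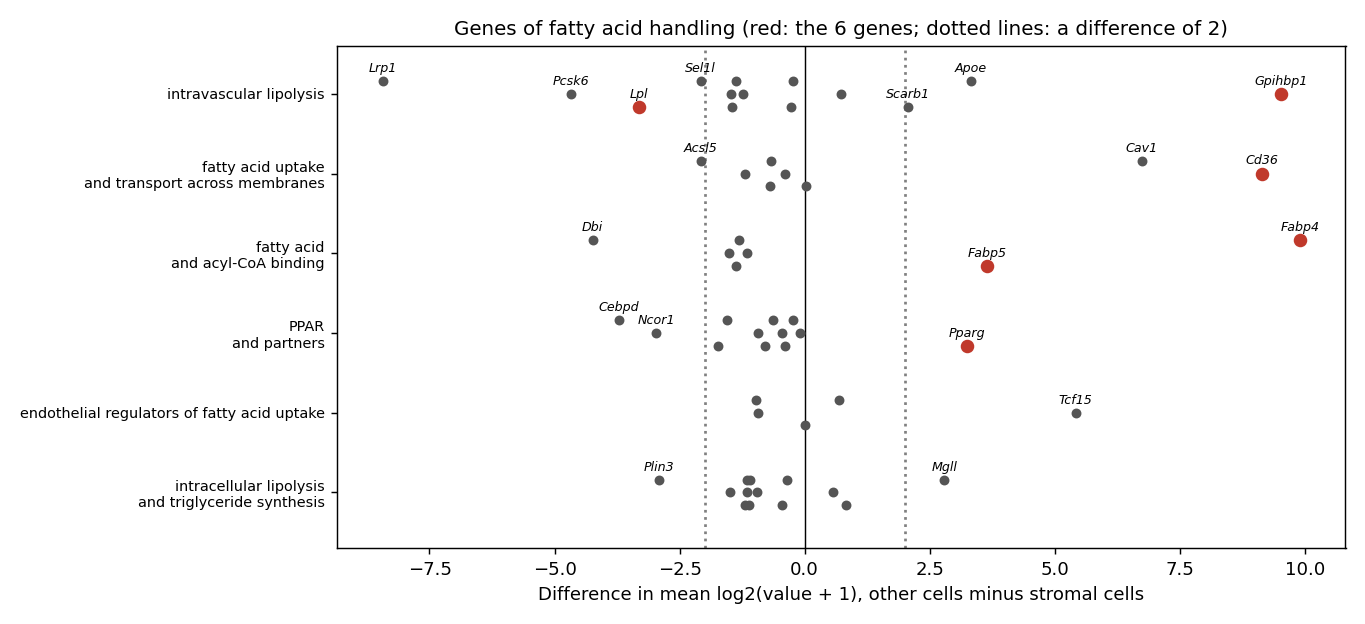
Differences in mean log2(value + 1), other minus stromal cells, for the 59 compared genes of 6 lists of fatty acid handling, with the 6 members in red and dotted lines at 2 either way. The 5 members on the right lie at 3.24 to 9.90 and *Lpl* on the left at -3.32.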

How the data were processed

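Reads were checked with FastQC and aligned by the authors to mm9 (HISAT2 2.0.5); they also used SAMtools 1.4 and StringTie 1.3.3, kept cells by aligned reads and normalized with scater. The counter and the annotation were not given in the sources used here. The values the authors deposited are a signal, read counts scaled by factors of each cell, in 1 table of 85 cells. From it whole reads were recovered: 5404 genes fell into 13 groups with a factor per cell, and all 144272 of their values above 0 were whole within a relative tolerance of 5e-09 or 2e-06 reads. The other genes held whole numbers. The recovery was tested on simulated data, in which the recovered reads were multiplied by random factors for groups of genes. Such data share the assumed structure, so they cannot show that the deposited values were made in this way. The methods of the study do not describe factors for groups of genes.

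Genes above 0 in at least 3 cells were compared on log2(value + 1). No test was made, as the cells are 1 sample. Thinning drew reads at random to 1146945 per cell. Doublets were not called. Intervals are Clopper-Pearson at 95%, for counting error only, and a count of 0 was given a limit of 3 cells.

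The genes named were all members, for each the 3 genes of highest Spearman coefficient, and list genes past a difference of 2 or among the 4 largest of a list either way, of which mostly the former are given. *Angptl4*, *Rxra*, *Adipoq*, *Kdr* and *Dcn* were named after their values were seen, as were single cells. A list gene is not reported here and was left out of the list counts. The members and lists were chosen with earlier results of these data known. Alternatives were other *Dcn* thresholds, pseudocounts, CPM, other groupings and detection levels. Near-identical transcripts were sought with blastn 2.17.0 in GENCODE vM21. Promoters are from RefSeq for GRCm38.p6. Python 3.11.15, numpy 2.4.6, pandas 2.3.3, scipy 1.17.1 and matplotlib 3.10.9 were used.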

Additional observations from a re-analysis of the deposited data

How the results depend on the processing

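No difference between the groups changed sign under the settings tried. Over these, the settings without 2, 3 or 5 cells that stood apart included, the difference ran from 6.48 to 11.13 for *Fabp4*, 4.25 to 10.14 for *Cd36*, 5.20 to 11.28 for *Gpihbp1*, 1.61 to 4.09 for *Fabp5*, 1.22 to 3.65 for *Pparg* and -3.32 to -1.07 for *Lpl*. The lowest size of each came from a pseudocount of 100 (6.48 for *Fabp4*, 4.25 for *Cd36*, 5.20 for *Gpihbp1*), at which *Fabp5*, *Pparg* and *Lpl* no longer reached a difference of 2. A larger pseudocount shrinks differences of low values by its construction. With a pseudocount of 10, 82 genes were higher in the other cells and 825 in the stromal cells, and with a limit of 1 the numbers were 326 and 4088, compared with 125 and 1883.

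Shares of stromal cells depended on the reads asked for. At 10 and at 100 reads they were 39.7% and 10.3% for *Fabp4*, 12.1% and 3.45% for *Cd36*, 6.9% and 5.17% for *Gpihbp1* and 0% and 0% for *Pparg*, and for *Lpl* the share was 70.7% at 100 reads. With every cell thinned to 1146945 reads, *Fabp4* was above 0 in 82.8% of stromal cells. The other 167 of the 184 values recomputed moved by less than the spread over cells, the interval of the share or, for counts, 1.5 times. Some of these 167 values could not move. The deposited *Dcn* values had a gap from 269.0 to 6521.4, so the higher *Dcn* threshold tried left the groups unchanged. For the differences, leaving out cells under 500 genes gave the same values as asking for at least 3 endothelial markers in the other cells. The 167 therefore include fixed and repeated values. For *Fabp5* and *Lpl* the spread (SD pooled over the groups, 3.99 and 4.54) was larger than the difference itself (3.65 and -3.32 in sign). This measure therefore cannot show that the differences of these 2 genes were stable. *Pparg*, with a spread of 2.78 and a difference of 3.24, fell to 1.22 and was still not counted as moved. The spread over cells is a wide limit for a group mean, so the count does not show stability for the remaining genes either.

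The settings without the cell of fewest reads, without cells under 500 genes, without cells 34 and 50, without cells 13, 67 and 89, without these 5 cells, and with 1000 recovered *Dcn* reads were chosen after seeing the data. The study has 1 sample, so none of the values carries an error between animals. No paired analysis was possible because there is a single group of cells and the result comes from no test.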
